A study of Arabidopsis thaliana with 8 samples.

Results

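Genes of carbon fixation and starch metabolism were compared between roots and leaves of wild-type Arabidopsis thaliana, ecotype Columbia 0. They were chosen by name and comprised PRK, SBPASE and RCA of the Calvin cycle, the Rubisco assembly factor AT3G47650, and PWD, APL3 and APL4 of starch metabolism. These 7 genes, of 2293 named by the platform's annotation, were represented by 7 of the 3439 probes. The series holds 8 arrays of total RNA, 4 from root material and 4 from leaves, with no treatment, age or growth condition given. Each array reports a relative spot intensity per probe, from 0 up to a ceiling common to all arrays. The labels do not say whether the 4 arrays of a tissue came from separate plants, so p-values measure only the spread between these arrays, which may be technical.

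The Calvin cycle fixes carbon dioxide in the chloroplast stroma. Rubisco attaches carbon dioxide to ribulose bisphosphate, and later enzymes reduce the product and rebuild the acceptor. In leaves part of the fixed carbon is stored as transient starch by day and broken down at night, whereas roots import sugar and hold starch in non-green plastids, among them the amyloplasts of the root cap that take part in gravity sensing. In bulk tissue, fewer cells of a type and less RNA per cell cannot be told apart.

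PRK, AT3G47650 and the probe shared by PWD and AT5G01260 were lower in root. The probe shared by APL3 and APL4 and both probes shared by RCA and AT1G73110 did not pass the test, and the SBPASE probe was listed at 0 on every array. Of the 6 member probes that could be tested, 3 were lower in root and 0 higher, at a Benjamini-Hochberg adjusted p below 0.05 in limma. Over all 3295 probes tested, 22.3% were called lower in root and 20.5% higher. The median log2 difference, root minus leaf, was -1.87 over the 6 member probes and 0.00 over all probes. Gene names rest on the probe numbers, and whether each probe reports the gene annotated to it was not tested. Some readings go against what is known of the named genes in leaves: SBPASE at 0, both RCA probes dim, and PSBW of photosystem II brighter in root. Differences are on the log2 scale after quantile normalisation and a floor of 0.00998, with standard errors from limma, while intensities are the deposited values.

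PRK (AT1G32060), phosphoribulokinase, makes the acceptor that Rubisco uses, in the last step of the regeneration phase. Its intensity was 0.0827, 0.197, 0.135 and 0.148 on root arrays 1 to 4, against 4.50, 4.05, 2.59 and 2.79 on leaf arrays 1 to 4. Every leaf array was far above every root array. The mean was 0.141 ± 0.0468 in root and 3.48 ± 0.935 in leaf (SD, n = 4 each), so that the root mean was 4.04% of the leaf mean. The log2 difference was -5.15 ± 0.36 (SE; limma, adjusted p = 2.89e-05). An exact two-sided permutation test of the deposited intensities gave p = 0.0286, the smallest that 70 relabelings of 4 against 4 unpaired arrays allow. Were the arrays paired by replicate number, the 16 sign flips of an exact paired test could not go below 0.125. Counted from the most negative difference, PRK stood at place 25 of 3295 tested probes and at place 4 of 662 tested probes with a single gene. Between 21.7% and 36.6% of the probes on each root array were dimmer than PRK, and between 94.9% and 96.7% on each leaf array, a measure that no scaling between arrays can change. The leaf arrays themselves differed: replicates 3 and 4 averaged 2.69 and replicates 1 and 2 averaged 4.27, whereas the root means of these pairs were 0.142 and 0.140.

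AT3G47650 encodes BSD2, a zinc-finger chaperone of the chloroplast that holds the Rubisco large subunit during assembly of the enzyme. The probe read 0.433, 0.301, 0.310 and 0.365 on the root arrays, against 2.62, 2.51, 3.06 and 2.92 on the leaf arrays. The tissues did not overlap, and the arrays of each tissue lay close together. Root averaged 0.353 ± 0.0608 and leaf 2.78 ± 0.254 (SD, n = 4 each), with the root mean at 12.7% of the leaf mean. The log2 difference was -3.20 ± 0.23 (SE; limma, adjusted p = 2.89e-05; exact permutation test of the intensities, p = 0.0286). It stood at place 93 of all tested probes and at place 13 of those with a single gene. On the root arrays 48.7% to 60.6% of probes were dimmer, so the probe was near the middle of the root distribution, and on the leaf arrays 93.9% to 95.8% were.

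The starch breakdown member was PWD (AT5G26570), phosphoglucan, water dikinase, which phosphorylates glucan chains at the granule surface after a first dikinase has acted and so opens the granule to hydrolysis. Its probe is shared with AT5G01260, and the signal cannot be assigned to 1 of these genes. It was listed at 0 on root arrays 1 and 2 and read 0.0671 and 0.195 on root arrays 3 and 4, against 1.12, 0.928, 1.08 and 1.03 on the leaf arrays. The leaf arrays were alike, and the highest root array stayed well below the lowest leaf array. The log2 difference was -5.36 ± 0.85 (SE; limma, adjusted p = 1.49e-03; exact permutation test of the intensities, p = 0.0286). With 2 root arrays at the floor, its size is set in part by that floor. It was -4.26 with a floor at the 5th percentile, -3.54 with an offset in place of the floor, and -3.92 on the arrays not at 0. In replicates 3 and 4 alone it was -4.01 and did not pass (limma, adjusted p = 0.0656).

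**Figure D1:**
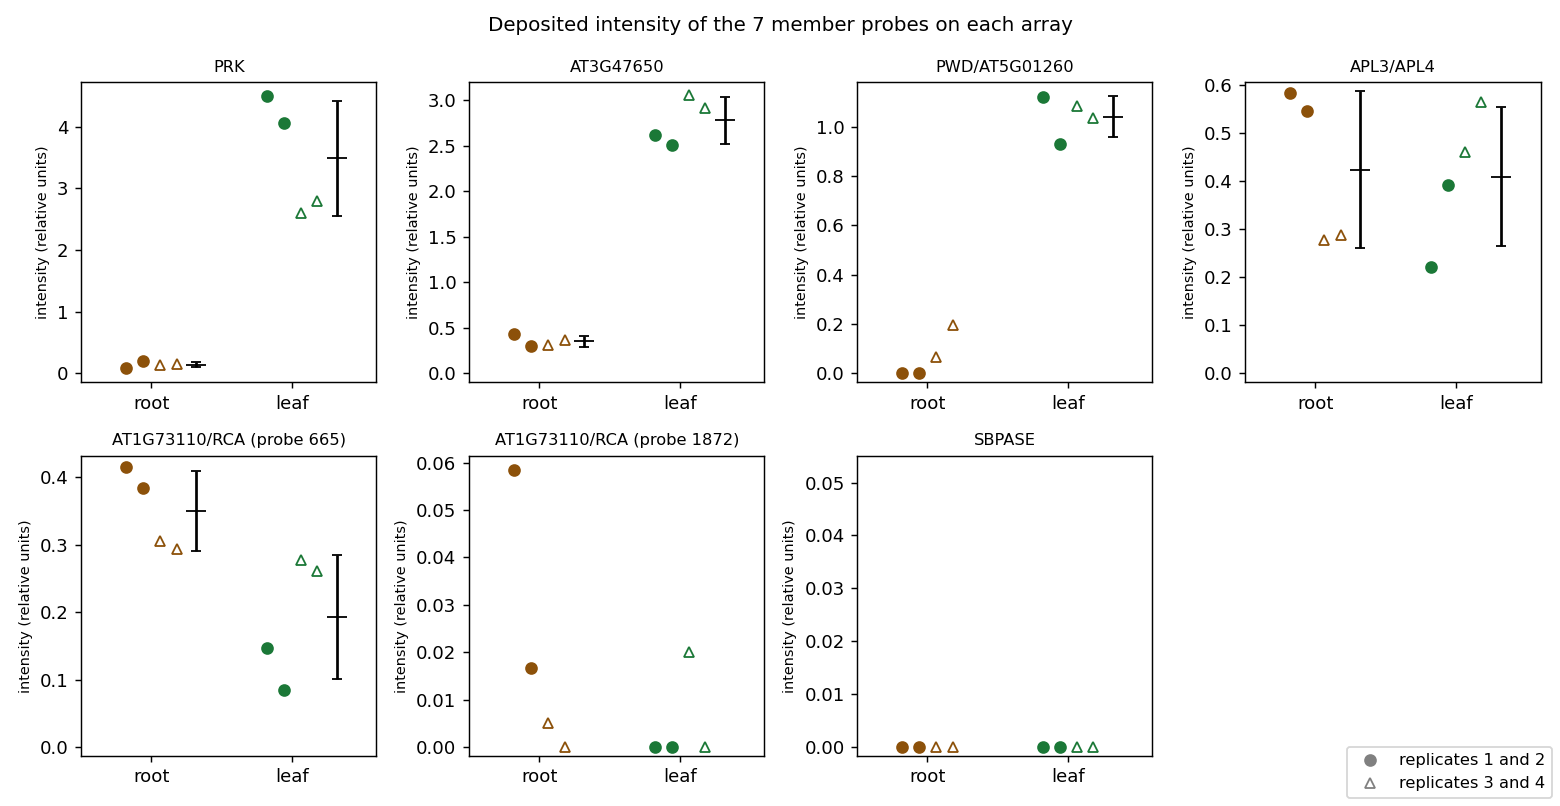
Deposited intensity (relative units, linear axes from 0) of the 7 member probes on the 4 root and 4 leaf arrays, with filled circles for replicates 1 and 2 and open triangles for replicates 3 and 4. Bars give the mean ± SD of 4 arrays and are left out where an array was listed at 0. PRK, AT3G47650 and PWD/AT5G01260 are separated by tissue, and APL3/APL4 is separated in opposite directions by the pairs of replicates.

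The starch synthesis members APL3 (AT4G39210) and APL4 (AT2G21590) encode large subunits of ADP-glucose pyrophosphorylase, the enzyme that makes the glucosyl donor for starch, and in Arabidopsis both are known chiefly from sink tissues. They share 1 probe. It read 0.583, 0.545, 0.277 and 0.288 on root arrays 1 to 4, against 0.220, 0.392, 0.461 and 0.564 on leaf arrays 1 to 4. The tissues overlapped, with root above leaf in replicates 1 and 2 and below leaf in replicates 3 and 4. The means were 0.423 ± 0.164 in root and 0.409 ± 0.144 in leaf (SD, n = 4 each). The log2 difference of -0.55 ± 0.33 did not pass (SE; limma, adjusted p = 0.210; exact permutation test of the intensities, p = 0.886). By pair of replicates it was 0.19 in replicates 1 and 2 and -1.29 in replicates 3 and 4, and when fitted alone the first did not pass (limma, adjusted p = 0.656) and the second did (limma, adjusted p = 0.0118). The interaction of tissue with pair of replicates was -1.47 ± 0.35 (SE) and did not pass (limma, adjusted p = 0.115 over all probes). In that fit, 3.34% of all probes passed.

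RCA (AT2G39730), Rubisco activase, uses ATP to remove inhibitory sugar phosphates from the active site of Rubisco and is an abundant leaf protein. Both of its probes are shared with AT1G73110. Probe 665 read 0.415, 0.385, 0.306 and 0.294 on the root arrays, against 0.147, 0.0851, 0.277 and 0.261 on the leaf arrays. As deposited, every root array was above every leaf array (exact permutation test, p = 0.0286), but after normalisation the tissues overlapped and the log2 difference was 0.16 ± 0.29 (SE; limma, adjusted p = 0.680). Without normalisation the difference was 0.999, while the median over all probes was then 0.80, and it did not pass (limma, adjusted p = 0.0726). Leaf replicates 3 and 4 averaged 2.32 times the leaf replicates 1 and 2, whereas in root this ratio was 0.751. The difference was 0.66 in replicates 1 and 2 and -0.35 in replicates 3 and 4 (interaction -1.02 ± 0.32; limma, adjusted p = 0.191).

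The further RCA probe, 1872, was near the lower end of the scale. It read 0.0585, 0.0168 and 0.00507 on root arrays 1 to 3 and was listed at 0 on root array 4, against 0 on leaf arrays 1, 2 and 4 and 0.0200 on leaf array 3. No order of the tissues can be read from these values, and the log2 difference was -0.08 ± 0.65 (SE; limma, adjusted p = 0.929). The number 1872 is divisible by 6. On the 261 such probes, 72.9% of values were exactly 0, against 11.7% to 16.6% on probe numbers with any other remainder. Whether this position bore on the signal of the probe was not tested.

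SBPASE (AT3G55800), sedoheptulose bisphosphatase, belongs to the regeneration phase of the cycle, as PRK does. Its probe carries this gene alone and was listed at 0 on all 4 root and all 4 leaf arrays, so no comparison of the tissues could be made. Of the 692 probes with a single gene, 30 (4.34%) were listed at 0 on every array. The SBPASE probe number is not divisible by 6. Of the 3178 probes with such numbers, 65 (2.05%) were listed at 0 on every array. Among the 620 that share its remainder of 5, it was 25 (4.03%). Of the 2 members from the regeneration phase, PRK was thus clearly read in leaf, while SBPASE had no reading in either tissue.

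**Figure D2:**
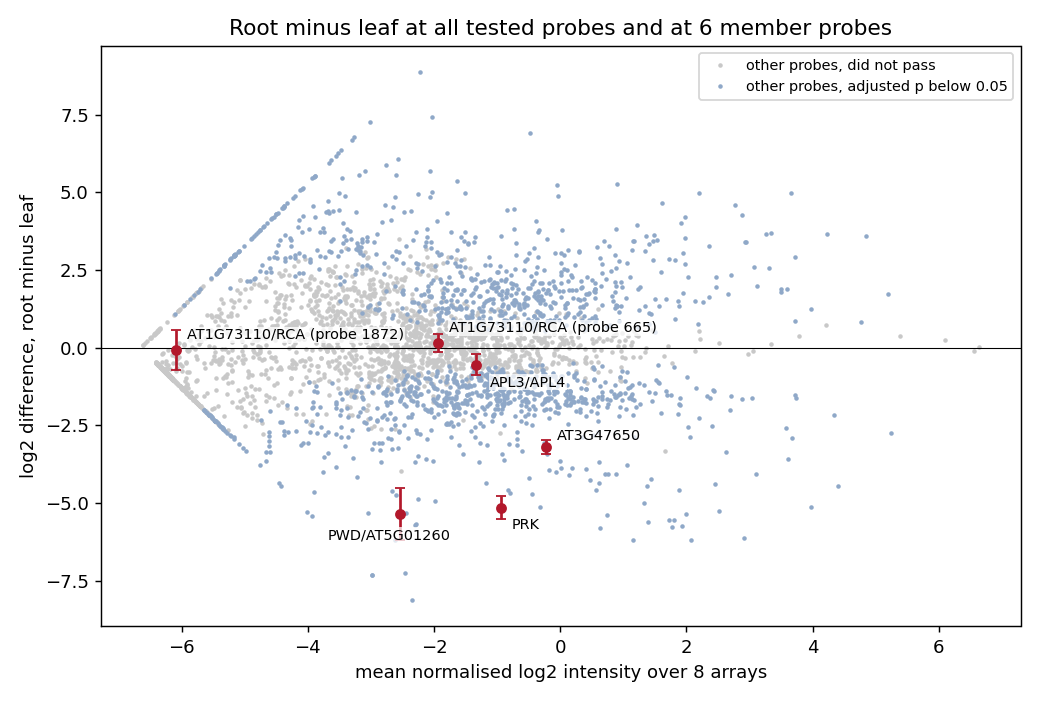
Log2 difference, root minus leaf, of each tested probe (vertical axis) against its mean normalised log2 intensity over the 8 arrays (horizontal axis), with 6 member probes in red and bars of 1 SE. Blue points passed an adjusted p of 0.05 and grey points did not. PRK, PWD/AT5G01260 and AT3G47650 lie among the most negative differences, at -5.15, -5.36 and -3.20, and the other members lie near 0; the oblique edges at left are probes at the floor throughout 1 tissue.

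The called members kept their sign under each of the 4 scalings run. Without normalisation the differences were -4.66 for PRK, -2.99 for AT3G47650 and -5.33 for the PWD probe, against a median of 0.80 over all probes. With array medians centred they were -5.49, -3.82 and -5.79. PRK differed by -5.58 in replicates 1 and 2 and by -4.72 in replicates 3 and 4, and AT3G47650 by -3.07 and -3.32. For APL3 and APL4 the sign turned with the scaling, at 0.04 without normalisation and -0.79 with medians centred.

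**Figure D3:**
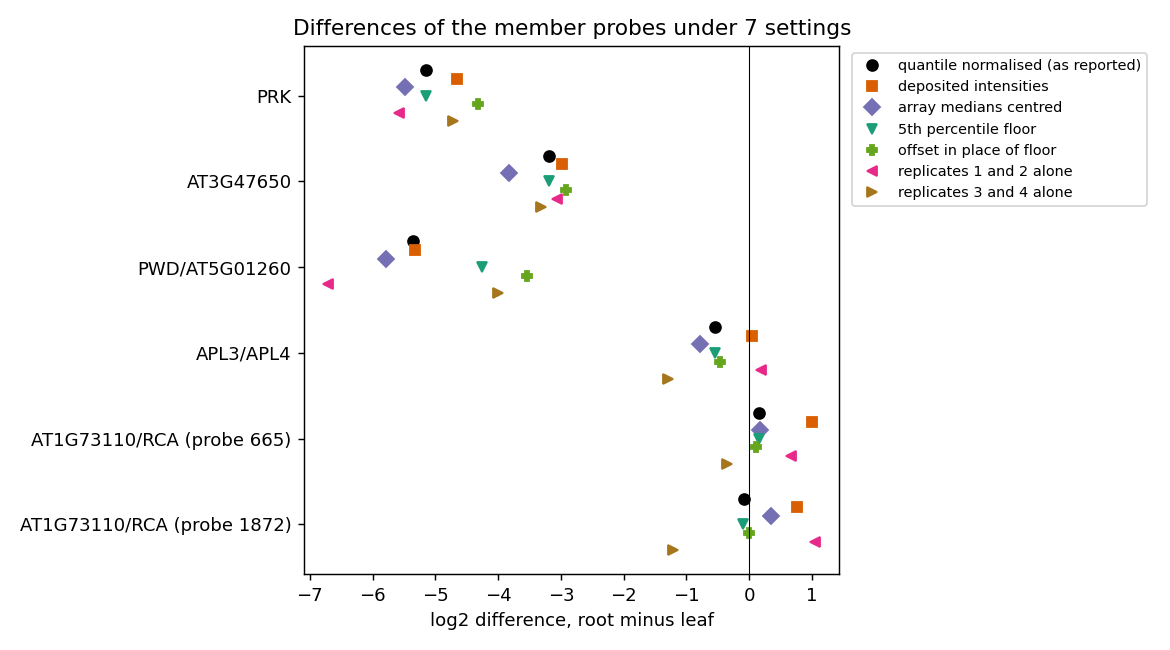
Log2 difference, root minus leaf, of 6 member probes (rows) under 7 settings (symbols). All symbols of PRK, AT3G47650 and PWD/AT5G01260 lie below 0, with PWD/AT5G01260 spread from -6.70 to -3.54, while those of APL3/APL4 and of both RCA probes lie on either side of 0.

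The other genes of these pathways came from lists of Calvin cycle, Rubisco assembly, starch synthesis, starch breakdown and plastid sugar transport genes, of which few had a probe. A probe was annotated to 3 of 25 Calvin cycle genes, 3 of 13 assembly and chaperonin genes, 2 of 17 starch synthesis genes, 1 of 21 starch breakdown genes and 0 of 4 transporters. Besides the members, this left 2 probes, both on the assembly list and both higher in root. The Rubisco small subunit genes, GAPA, GAPB and the starch synthases were not analysed here.

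Chaperonins of the Cpn60 family fold the Rubisco large subunit before its assembly factors act. Cpn60beta4 (AT1G26230), known in Arabidopsis for folding a subunit of the chloroplast NADH dehydrogenase-like complex, read 0.301, 0.328, 0.390 and 0.369 in root, against 0 on leaf arrays 1, 2 and 4 and 0.0977 on leaf array 3. Its difference was 3.84 ± 0.88 (SE; limma, adjusted p = 9.23e-03). With 3 leaf arrays at 0, the size of this difference is set in part by the floor. It was 2.31 with a floor at the 5th percentile and 1.95 with an offset in place of the floor. With values of 0 left out, which leaves only leaf array 3 in that tissue, it was 0.97. It did not pass in the separate-variance test (adjusted p = 0.0691) or in replicates 3 and 4 alone (limma, adjusted p = 0.247). Cpn60beta3 (AT5G56500) read 0.515 ± 0.127 in root and 0.163 ± 0.0294 in leaf (SD, n = 4 each), without overlap, and differed by 0.93 ± 0.22 (SE; limma, adjusted p = 0.0109). Both were higher in root, opposite to AT3G47650 on the same list.

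**Figure D4:**
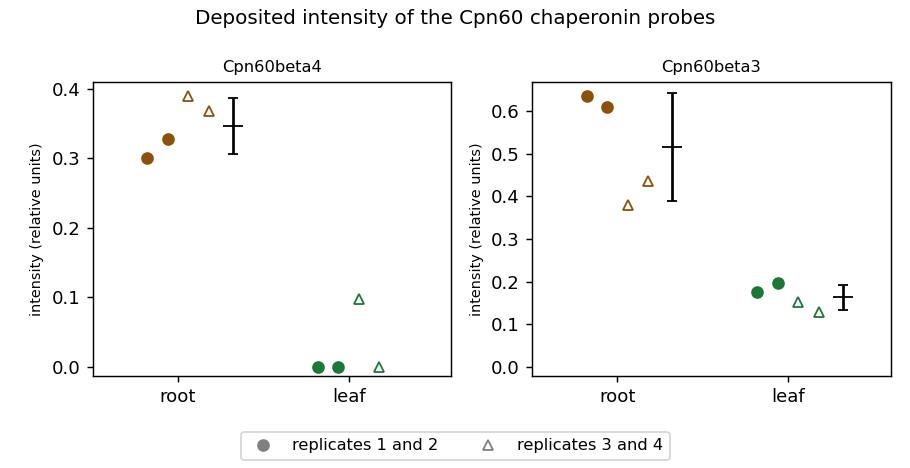
Deposited intensity (relative units, linear axes from 0) of the Cpn60beta4 and Cpn60beta3 probes on the 4 root and 4 leaf arrays, with symbols for pairs of replicates and bars for the mean ± SD where no array was at 0. Both probes are higher in root without overlap, and Cpn60beta4 is at 0 on 3 leaf arrays.

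PRK and AT3G47650 followed each other over the 8 arrays (Pearson r = 0.957 on normalised log2 values), a value that mainly carries the contrast of 4 root with 4 leaf arrays. Among 392 other probes with a single gene and no array at 0, those most like PRK were AT3G59300 and AT5G03370 (r = 0.992 each), AT1G72020 (0.990), AT3G06570 (0.987) and AT4G31530 (0.986). Those most like AT3G47650 were AT4G30150 and AT4G20300 (r = 0.997 each), AT3G26630 (0.993), AT5G38360 and AT2G01400 (0.992 each). Choosing by this pattern fixes that they were dimmer in root. Their log2 differences ran from -1.41 for AT3G59300 to -4.11 for AT3G06570 in the PRK set, and from -1.47 for AT4G20300 to -5.75 for AT5G38360 in the AT3G47650 set.

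The tissue labels were checked with 6 probes for photosystem and antenna genes, of which 4 were lower in root, 1 (PSBW) was higher and 1 (PSB27) did not pass. Their summed intensity was 66.9 to 84.6 on the root arrays and 51.5 to 60.3 on the leaf arrays, to which PSBW gave the largest part, at 70.8 ± 8.33 in root and 25.1 ± 1.24 in leaf (SD, n = 4 each). The antenna gene LHB1B2 read 0.481 ± 0.174 in root and 22.5 ± 2.53 in leaf. None of 12 root marker genes had an annotated probe, so the root label could not be checked in this way. The summed intensity of all probes was 2868 to 3505 on root arrays and 3021 to 3426 on leaf arrays, and 12.8% to 15.1% of root values and 20.0% to 22.8% of leaf values were exactly 0. Arrays within the pair of replicates 1 and 2 or 3 and 4 correlated at r = 0.929 and 0.970 in root, against 0.888 to 0.892 across these pairs; in leaf the values were 0.791 or above, against 0.786 to 0.795.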

How the data were processed

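The deposited table gives an intensity for each spot; how the authors hybridised, background-corrected or scaled them is not given in the sources used here. Genes were named from the platform annotation by probe number (692 probes with 1 gene, 870 with several, 1877 unnamed), and 2286 of 2293 named genes matched the RefSeq gene table, which was used for names only. No probe sequences were used here. Intensities were quantile normalised, and values deposited as 0 were then set back to 0. The result was floored at the 1st percentile of positive normalised values (0.00998) and log2 transformed. Left out were 144 probes that never rose above the floor. limma 3.58.1 in R 4.3.3 compared root with leaf over the other 3295 probes, with tissue as the only term and Benjamini-Hochberg adjustment (threshold 0.05). The fit was also run on simulated arrays, with changes added only to probes brighter than the median and no values set to the floor. That run therefore does not bear on probes with arrays at 0. Exact permutation tests used scipy 1.17.1, and figures matplotlib 3.10.9. Precision is limited by the number of arrays, and an intensity of 0 gives no level.

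Members, gene lists and tests were chosen with earlier results of these data known. Named genes were all members, every probe of the lists (1 item of the assembly list is not reported here), and the 5 single-gene probes, above 0 on all arrays, that correlated best with PRK and with AT3G47650. Replicate numbers come from the sample titles. Deviations of same-numbered root and leaf arrays from their tissue means correlated at 0.109, 0.138, 0.102 and 0.117, each above 0.1, which meets the rule used for pairing by number. The printed standard errors and p-values nevertheless treat the arrays as unpaired, and a replicate block was fitted as an alternative. Others concerned scaling, floor, zeros, dim probes, variance model, pairs of replicates and leaving out each array. The interaction with pair of replicates, a block for it, leaving out probe numbers divisible by 6 and a floor at the 1st percentile of deposited values were added after seeing the data.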

Additional observations from a re-analysis of the deposited data

Results flagged for a closer look

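In root minus leaf, the APL3 and APL4 probe had every root array above every leaf array in replicates 1 and 2 and below in replicates 3 and 4, on deposited intensities. The difference between the pairs of replicates was -1.47 on the normalised log2 scale and did not pass the interaction test (limma, adjusted p = 0.115). The labels give no batch, so these pairs are named by replicate number only.

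Leaf replicate 3 stood apart from the other leaf arrays at 2 dim probes. It read 0.0200 at RCA probe 1872 and 0.0977 at Cpn60beta4, where the other 3 leaf arrays were listed at 0. Chance marks about 1 group in 20 by this rule in general, but where the other 3 arrays are tied at 0 any reading above 0 is marked. What set these values was not tested.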

How the results depend on the processing

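PRK and AT3G47650 kept their direction and their call under all 24 alternatives run, with differences of -5.58 to -4.33 and -3.82 to -2.92. Of the member probes, 3 were called lower in root and 0 higher under each alternative, but in replicates 3 and 4 alone the PWD probe gave way to the APL3 and APL4 probe. With the replicate block, 1302 probes were called, against 1412 without it, and no call of a member or chaperonin probe changed. The adjusted p-values of the called members were larger with the block than those printed above. They were 2.00e-03 for PRK, 1.32e-03 for AT3G47650 and 7.35e-03 for the PWD probe (limma, adjusted p). Averaging replicates 1 and 2 and replicates 3 and 4 left 737 calls. The balance of calls moved with scaling: 69.8% were higher in root as deposited or with a common mean, against 47.9% after quantile normalisation.

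Chaperonin probes higher in root fell to 1 with zeros set to missing, with the separate-variance test, with averaged pairs and in replicates 3 and 4 alone. The sign of APL3 and APL4 turned to 0.045 as deposited, 0.064 with a common mean and 0.19 in replicates 1 and 2. RCA probe 665 turned to -0.35 in replicates 3 and 4 and ranged from -0.08 (without leaf replicate 2) to 0.32 over arrays left out. RCA probe 1872 turned to 0.77 as deposited, 0.36 with medians centred, 0.68 with a common mean, 0.001 with the offset, 1.05 in replicates 1 and 2, 0.115 with the floor from deposited values, and ranged from -0.44 to 0.52 over arrays left out; without a change of sign it was -1.72 with zeros set to missing and -1.21 in replicates 3 and 4, and it was absent without dim probes and without numbers divisible by 6. The causes were not tested. An intensity of 0 gives no level, so the SBPASE probe could not be tested under any setting.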
